A study of Mus musculus with 72 samples.

Results

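The 8 genes Sik1, Sik2, Sik3, Crem, Creb1, Atf1, Crtc1 and Crtc2, which encode the salt-inducible kinases, CREB family transcription factors and CREB coactivators, were followed through bulk messenger RNA libraries of the mouse hippocampus. They were listed by symbol and matched to Ensembl identifiers, which gave 8 of the 55401 genes in the gene table, and the 39 Crem transcripts were taken from the 119414 transcripts of the transcript table. Male mice gave separate libraries of the dorsal (DH) and ventral (VH) hippocampus. Mice carried the genotype label C57BL_6NJ or C57BL_6J (6NJ and 6J below). They had been fear conditioned with shock and cue (Shock_Cue), had received the cue alone (Cue), or came directly from the home cage (HomeCage), and tissue of the first 2 conditions was taken 30 min afterwards. The 12 groups held 6 libraries each, 72 in all, and every library carried a code such as 31A that 1 DH and 1 VH library shared. The labels give neither ages nor whether the libraries of a group stem from different mice, so p-values measure the spread between these libraries, which may be technical.

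CREB1, ATF1 and CREM are related bZIP factors that bind the cAMP response element, and phosphorylation by kinases downstream of cAMP and calcium lets them recruit coactivators. CRTC1 and CRTC2 are coactivators that salt-inducible kinases (SIKs) hold in the cytoplasm by phosphorylating them, and protein kinase A in turn inhibits the SIKs. Transcription of Sik1 and of a short repressor form of Crem, known as ICER, is itself induced by cAMP, so both are known as feedback genes of this pathway, which has been studied in hippocampal memory.

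Library totals were 30330382 to 56258370 gene counts, and mitochondrial genes took 5.6 to 9.44% of them. Levels are given as CPM, a library's counts of a gene scaled to a common total with TMM factors. All 52 cell type markers looked at had counts in every library. The sum of the 4 ventral markers was 77.4 to 209.9 CPM in VH, and among DH libraries it reached 104.4 CPM in code 40A (6NJ, Cue), inside the VH range. The summed level of 5 choroid plexus markers varied widely within groups, with 39.7 to 8871 CPM in DH and 23.6 to 2323 CPM in VH. Nnt, which carries a known deletion in C57BL/6J, was lower under the label 6NJ, at 20.3 ± 1.16 CPM, against 37.9 ± 1.90 CPM under 6J, and Gabra2, known for low expression in C57BL/6J, was 120.2 ± 15.8 CPM under 6NJ against 267 ± 34.8 CPM under 6J (SD, n = 36 each). Crb1, which carries a known mutation in C57BL/6N, was 1.29 ± 0.431 CPM under 6NJ against 0.517 ± 0.204 CPM under 6J. The ranges did not overlap for Nnt (18.3 to 22.9 CPM under 6NJ, 34.2 to 44.35 CPM under 6J) or Gabra2 (91.4 to 158.2 and 220.9 to 328.2 CPM). Those of Crb1 overlapped, and Crb1 was not used to judge the labels. Nnt and Gabra2 go against the strain labels in all 72 libraries, and whether the labels were exchanged was not tested. Each comparison of strains is therefore between libraries labelled 6NJ and libraries labelled 6J. In bulk tissue, fewer cells of a type and less RNA per cell cannot be told apart.

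The promoters of Creb1, Atf1, Sik3 and Sik2 are shown because CREB factors act through the cAMP response element (CRE), and because these 4 genes differ in the CRE letters they hold. A link between these letters and the responses described below was not tested. Of the 8 members, 5 had an entry in RefSeq's table of promoters for build GRCm38.p6, which spans 250 bases before to 50 bases after a gene's start. These were Creb1, Crtc1, Sik3, Sik2 and Atf1, while Sik1, Crem and Crtc2 had no entry. The start meant here and in the positions below is that of the promoter table. For Creb1, Atf1 and Crtc1 it lies downstream of the gene start given further below, so fewer bases before the latter were searched. Each 300-base sequence was searched for the CRE core TGACG on both strands (CGTCA on the other), which is also the start of the full palindrome TGACGTCA, and matches are in capitals.
Creb1, chr1:64532554-64532853, plus strand: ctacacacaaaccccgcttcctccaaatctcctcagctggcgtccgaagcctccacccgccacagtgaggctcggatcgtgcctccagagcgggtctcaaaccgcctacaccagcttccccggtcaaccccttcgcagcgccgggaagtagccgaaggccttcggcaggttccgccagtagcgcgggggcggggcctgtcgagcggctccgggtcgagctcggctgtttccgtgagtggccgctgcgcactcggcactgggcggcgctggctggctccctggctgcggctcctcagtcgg
Atf1, chr15:100227609-100227908, plus strand: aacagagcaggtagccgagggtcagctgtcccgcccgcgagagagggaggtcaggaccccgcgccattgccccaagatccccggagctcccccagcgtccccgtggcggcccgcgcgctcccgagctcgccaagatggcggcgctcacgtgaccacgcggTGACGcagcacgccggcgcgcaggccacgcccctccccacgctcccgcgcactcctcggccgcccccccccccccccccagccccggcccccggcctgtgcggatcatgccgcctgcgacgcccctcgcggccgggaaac
Sik3, chr9:46012570-46012869, plus strand: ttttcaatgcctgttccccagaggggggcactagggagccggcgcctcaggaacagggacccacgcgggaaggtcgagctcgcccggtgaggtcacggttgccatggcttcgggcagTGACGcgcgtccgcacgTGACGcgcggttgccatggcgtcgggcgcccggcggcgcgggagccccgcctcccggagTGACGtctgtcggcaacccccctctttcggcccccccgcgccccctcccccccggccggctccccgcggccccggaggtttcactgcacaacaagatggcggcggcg
Sik2, chr9:51009024-51009323, minus strand: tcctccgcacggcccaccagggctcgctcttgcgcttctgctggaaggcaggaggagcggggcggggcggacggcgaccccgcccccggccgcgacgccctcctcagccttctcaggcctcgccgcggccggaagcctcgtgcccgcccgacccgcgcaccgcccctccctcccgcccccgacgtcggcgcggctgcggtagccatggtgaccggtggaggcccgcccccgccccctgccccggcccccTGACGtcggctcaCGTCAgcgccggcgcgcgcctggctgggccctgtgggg
Sik3 held 3 cores, with first bases at -133, -116 and -57, where -1 is the last base before the gene's start, Sik2 held 2 at -1 and 13, and Atf1 held 1 at -90. Creb1 and Crtc1 held 0 cores, and none of the 5 held the full palindrome. Of the 32851 promoters in that table, 20.8% held a core and 1.79% the palindrome. These letters describe the windows and are not shown to be sites in use.

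Sik1 was the member that changed most, and it was 2.02- to 2.39-fold higher after either experience. This gene on chromosome 17 (31844250-31855804, minus strand, GRCm38) encodes the salt-inducible kinase whose own transcription is induced by cAMP. In DH it ranged over 12.1 to 21.3 CPM with a median of 16.6 CPM in the 12 Shock_Cue libraries, over 13.6 to 21.8 CPM with a median of 16.9 CPM in the 12 Cue libraries, and over 5.92 to 10.4 CPM with a median of 8.40 CPM in the 12 HomeCage libraries. In VH the range was 16.5 to 24.9 CPM (median 18.6 CPM) in Shock_Cue libraries, 15.6 to 24.4 CPM (median 19.2 CPM) in Cue libraries and 6.99 to 9.72 CPM (median 8.31 CPM) in HomeCage libraries. In both regions, and under each strain label alone, every Shock_Cue and every Cue library lay above every HomeCage library.

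**Figure D1:**
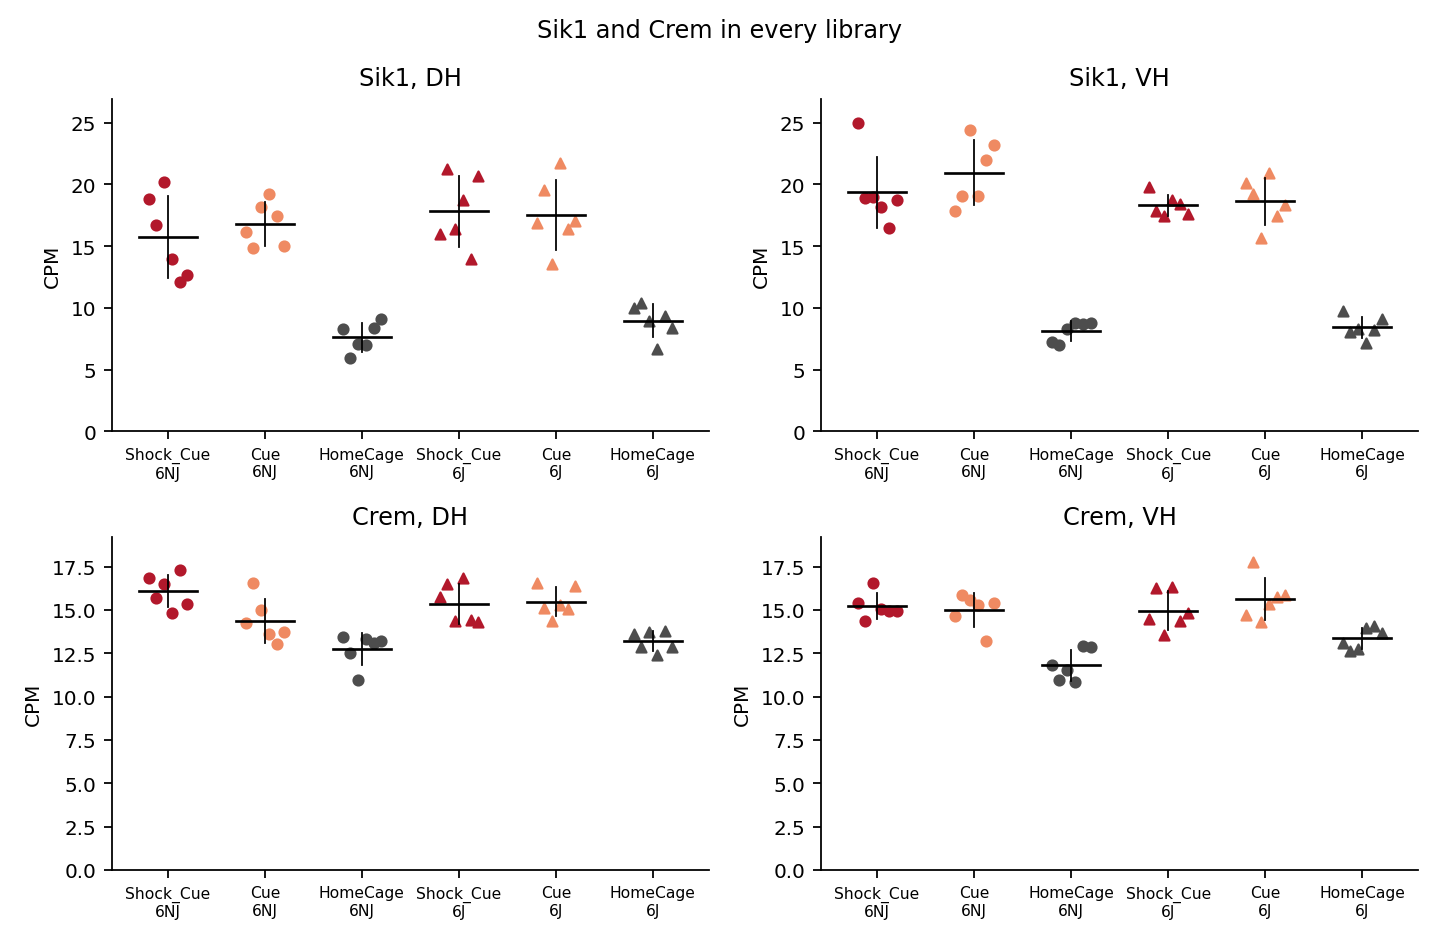
Sik1 (top) and Crem (bottom) in CPM in each library of DH (left) and VH (right), by condition and strain label; bars are the mean and vertical lines 1 SD of 6 libraries. Sik1 in the Shock_Cue and Cue libraries does not overlap the HomeCage libraries, while Crem overlaps them in some groups.

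The log2 fold change of Sik1 in DH was 1.02 ± 0.0931 for Shock_Cue minus HomeCage (SE, adjusted p = 1.88e-09, edgeR's quasi-likelihood test with Benjamini-Hochberg adjustment over all genes, used throughout) and 1.05 ± 0.0931 for Cue minus HomeCage (adjusted p = 7.19e-10). In VH it was 1.18 ± 0.0617 for Shock_Cue minus HomeCage (adjusted p = 2.06e-17) and 1.26 ± 0.0616 for Cue minus HomeCage (adjusted p = 2.37e-18). Both comparisons of a region share the HomeCage libraries. Under the strain labels taken alone, the 8 estimates for Sik1 were between 0.96 (DH, Cue, 6J) and 1.36 (VH, Cue, 6NJ).

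The other salt-inducible kinase genes showed no such rise. Sik3, which encodes a kinase with roles in metabolism and sleep and lies on chromosome 9 (46012820-46224194, plus strand), was lower in DH after Shock_Cue. It ranged over 118.1 to 143.8 CPM (median 135.8 CPM) in DH Shock_Cue libraries and 128.2 to 155.4 CPM (median 144.2 CPM) in DH HomeCage libraries, with a log2 fold change of -0.10 ± 0.0271 (adjusted p = 0.0114). The groups overlapped, and 3 of 12 Shock_Cue libraries lay below the lowest HomeCage library. DH Cue minus HomeCage gave -0.05 ± 0.0271 for Sik3 (adjusted p = 0.191), and the corresponding values in VH were -0.03 ± 0.0326 after Shock_Cue (adjusted p = 0.603) and 0.02 ± 0.0326 after Cue (adjusted p = 0.727). Sik2, which encodes a further kinase of this family, lies on the minus strand of chromosome 9 (50892801-51009073) and shares 1429 exon bases with the antisense gene Ppp2r1b. The strand setting of the authors' counting is not given in the sources used here, so how reads of that stretch were assigned is not known here. In DH it ranged over 17.2 to 25.7 CPM in Shock_Cue libraries, 19.3 to 25.6 CPM in Cue libraries and 16.5 to 25.0 CPM in HomeCage libraries, and the groups overlapped. The log2 fold changes of Sik2 were 0.04 ± 0.0580 and 0.10 ± 0.0580 in DH and 0.09 ± 0.0758 and 0.17 ± 0.0756 in VH, for Shock_Cue and for Cue over HomeCage. The smallest adjusted p was 0.0906, for Cue in VH, where limma-voom called Sik2 (0.18, adjusted p = 0.0474) and DESeq2 did not. Within a region limma-voom took the number in the code as a random effect, so its design differs from the main fit.

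Among the CREB family factors, Crem rose in all 4 comparisons with the home cage. Crem encodes the cAMP response element modulator, which has activator and repressor forms, and lies on the minus strand of chromosome 18 (3266048-3337748). In DH it ranged over 14.3 to 17.3 CPM (median 15.7 CPM) in Shock_Cue libraries, 13.0 to 16.5 CPM (median 15.0 CPM) in Cue libraries and 11.0 to 13.8 CPM (median 13.1 CPM) in HomeCage libraries. All 12 Shock_Cue libraries and 9 of 12 Cue libraries lay above the highest HomeCage library. In VH the range was 13.5 to 16.6 CPM (median 15.0 CPM) in Shock_Cue libraries, 13.2 to 17.8 CPM (median 15.4 CPM) in Cue libraries and 10.9 to 14.1 CPM (median 12.8 CPM) in HomeCage libraries, with 11 of 12 libraries of either condition above the highest HomeCage library. The log2 fold changes in DH were 0.27 ± 0.0411 after Shock_Cue (adjusted p = 1.72e-05) and 0.20 ± 0.0412 after Cue (adjusted p = 0.00114). Those in VH were 0.26 ± 0.0409 after Shock_Cue (adjusted p = 2.49e-05) and 0.29 ± 0.0409 after Cue (adjusted p = 2.62e-06). Crem shares 472 exon bases with the antisense transcript Gm6225, with the same limit as for Sik2.

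Creb1, which encodes CREB itself and lies on chromosome 1 (64532645-64604548, plus strand), also rose in all 4 comparisons, by less. In VH it ranged over 57.5 to 67.1 CPM (median 61.6 CPM) in Shock_Cue libraries, 58.1 to 71.0 CPM (median 63.4 CPM) in Cue libraries and 45.3 to 60.6 CPM (median 55.5 CPM) in HomeCage libraries. The ranges overlapped, with 9 of 12 Shock_Cue and 10 of 12 Cue libraries above the highest HomeCage library. Log2 fold changes over the home cage in VH were 0.17 ± 0.0326 for Shock_Cue (adjusted p = 0.000307) and 0.22 ± 0.0326 for Cue (adjusted p = 3.92e-06). In DH, Creb1 ranged over 62.5 to 69.6 CPM (median 65.7 CPM) in Shock_Cue libraries, 61.9 to 79.5 CPM (median 64.7 CPM) in Cue libraries and 55.6 to 64.6 CPM (median 62.4 CPM) in HomeCage libraries. DH log2 fold changes were 0.11 ± 0.0309 for Shock_Cue (adjusted p = 0.0187) and 0.12 ± 0.0310 for Cue (adjusted p = 0.00595). The DH Cue libraries labelled 6J separated by code number: codes 32A, 32B and 32C had 79.5, 77.9 and 68.8 CPM of Creb1, and codes 34A, 34B and 34C had 64.6, 64.3 and 65.1 CPM. The labels do not say what a code number stands for, and each number occurs under 1 strain label and in 1 condition. The choroid plexus sum was 8871 CPM in the DH library 32B, the highest of all, while the DH libraries 32A and 32C were not among the 8 highest, and its part in the Creb1 values was not tested. In VH, the highest Creb1 values were again those of 32A and 32B, at 70.9 and 70.6 CPM.

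Atf1, a close relative of Creb1 on chromosome 15 (100227819-100261244, plus strand), rose in DH. It ranged over 9.30 to 11.3 CPM (median 10.5 CPM) in DH Shock_Cue libraries, 9.59 to 11.2 CPM (median 10.4 CPM) in DH Cue libraries and 8.03 to 10.6 CPM (median 9.31 CPM) in DH HomeCage libraries. Of the DH HomeCage libraries, 11 lay below the lowest Cue library and 6 below the lowest Shock_Cue library. The DH log2 fold change was 0.18 ± 0.0394 in both comparisons (adjusted p = 0.00207 for Shock_Cue and 0.00151 for Cue). In VH it was 0.09 ± 0.0433 (adjusted p = 0.119) for Shock_Cue and 0.08 ± 0.0432 (adjusted p = 0.137) for Cue. Whether the responses of Atf1 differed between regions was tested directly, with differences DH minus VH of 0.08 ± 0.0558 for Shock_Cue (adjusted p = 0.623) and 0.10 ± 0.0558 for Cue (adjusted p = 0.793).

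**Figure D2:**
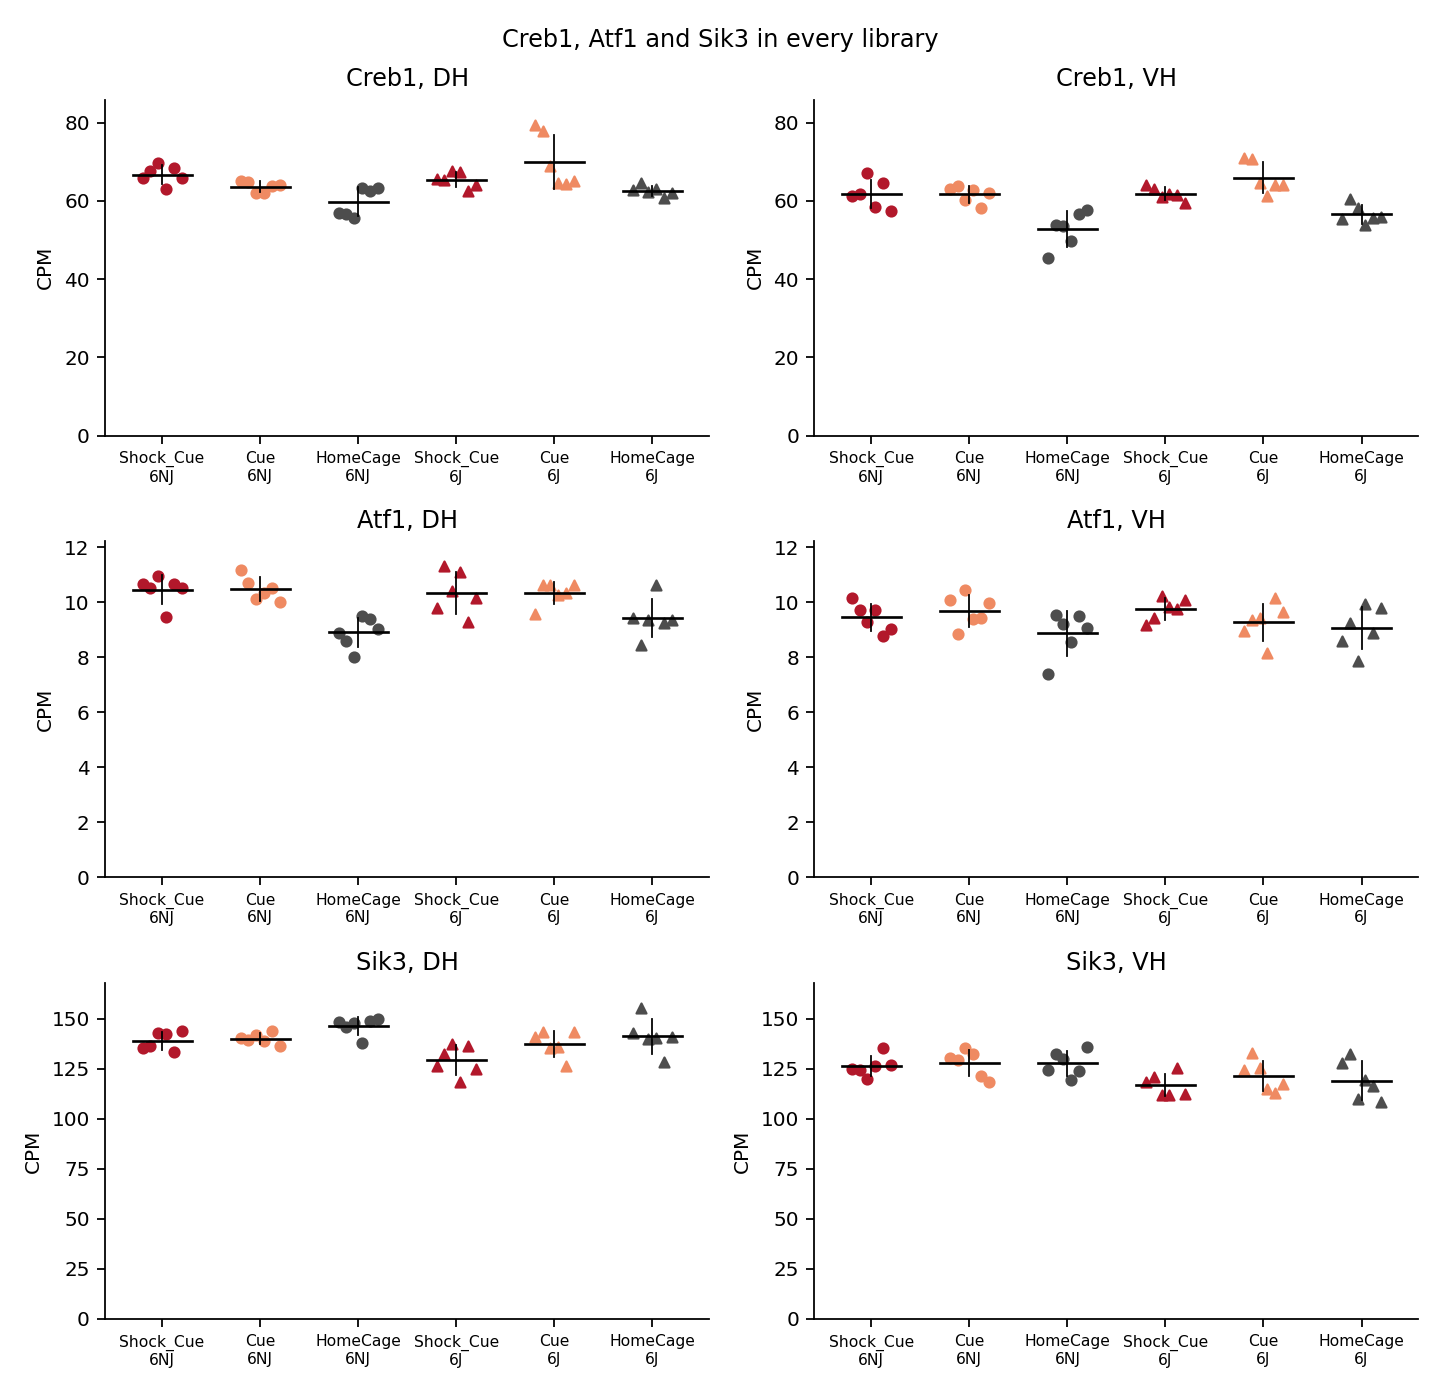
Creb1, Atf1 and Sik3 in CPM in each library of DH (left) and VH (right), by condition and strain label; bars are the mean and vertical lines 1 SD of 6 libraries. The highest DH values of Creb1, 79.5 and 77.9 CPM, are Cue libraries labelled 6J, and Sik3 in DH has a median of 135.8 CPM in Shock_Cue and 144.2 CPM in HomeCage libraries.

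The coactivator genes passed no test against the home cage. Crtc1, on chromosome 8 (70382355-70439579, minus strand), encodes the CRTC that is abundant in neurons. Its levels were 260.4 to 309.3 CPM in DH Shock_Cue libraries, 254.8 to 313.5 CPM in DH Cue libraries and 263.3 to 315.3 CPM in DH HomeCage libraries. All 4 estimates for Crtc1 were negative, from -0.05 to -0.09, and the smallest adjusted p was 0.0788 (VH, Shock_Cue, -0.09 ± 0.0377). Crtc2, on chromosome 3 (90254163-90264125, plus strand), is best known from glucose metabolism in liver. Its levels were 25.4 to 31.7 CPM in DH Shock_Cue libraries, 25.5 to 35.0 CPM in DH Cue libraries and 25.8 to 32.3 CPM in DH HomeCage libraries. The interval of its log2 fold change ran from -0.08 to 0.08 in DH for Shock_Cue and from -0.14 to 0.01 in VH for Cue.

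In DH, 5 of 8 genes passed the test after Shock_Cue, against 10.0% of the 19647 genes tested, and 4 of 8 after Cue, against 13.0%. In VH, 3 of 8 passed after Shock_Cue, against 20.7% of the 19597 genes tested, and 3 of 8 after Cue, against 31.5%, so the VH Cue share is close to the background. The median log2 fold change of the 8 genes was 0.0734 and 0.113 in DH and 0.0930 and 0.125 in VH for Shock_Cue and Cue, and the median over all genes tested was 0.000765 and -0.0031 in DH and -0.00458 and -0.0074 in VH. The 8 genes were chosen with earlier results of these data known, so these shares and medians describe them and are not a test of the set. Microglia markers summed to 147.8 ± 28.3 CPM in VH Shock_Cue libraries, 161.5 ± 27.5 CPM in VH Cue libraries and 130.8 ± 21.1 CPM in VH HomeCage libraries (SD, n = 12 each), and their part in these results was not tested. A further fit left out the 6 codes whose Lcn2, an acute-phase gene, exceeded 2 CPM. These were 32A, 32B, 34A and 34C in Cue and 35A and 35B in HomeCage, all labelled 6J. With these fewer libraries, lost mostly from 6J Cue, only Sik1 passed in the DH Cue comparison. Crem was then 0.16 (adjusted p = 0.119) in place of 0.20, Creb1 0.09 (adjusted p = 0.145) in place of 0.12 and Atf1 0.17 (adjusted p = 0.0606) in place of 0.18.

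**Figure D3:**
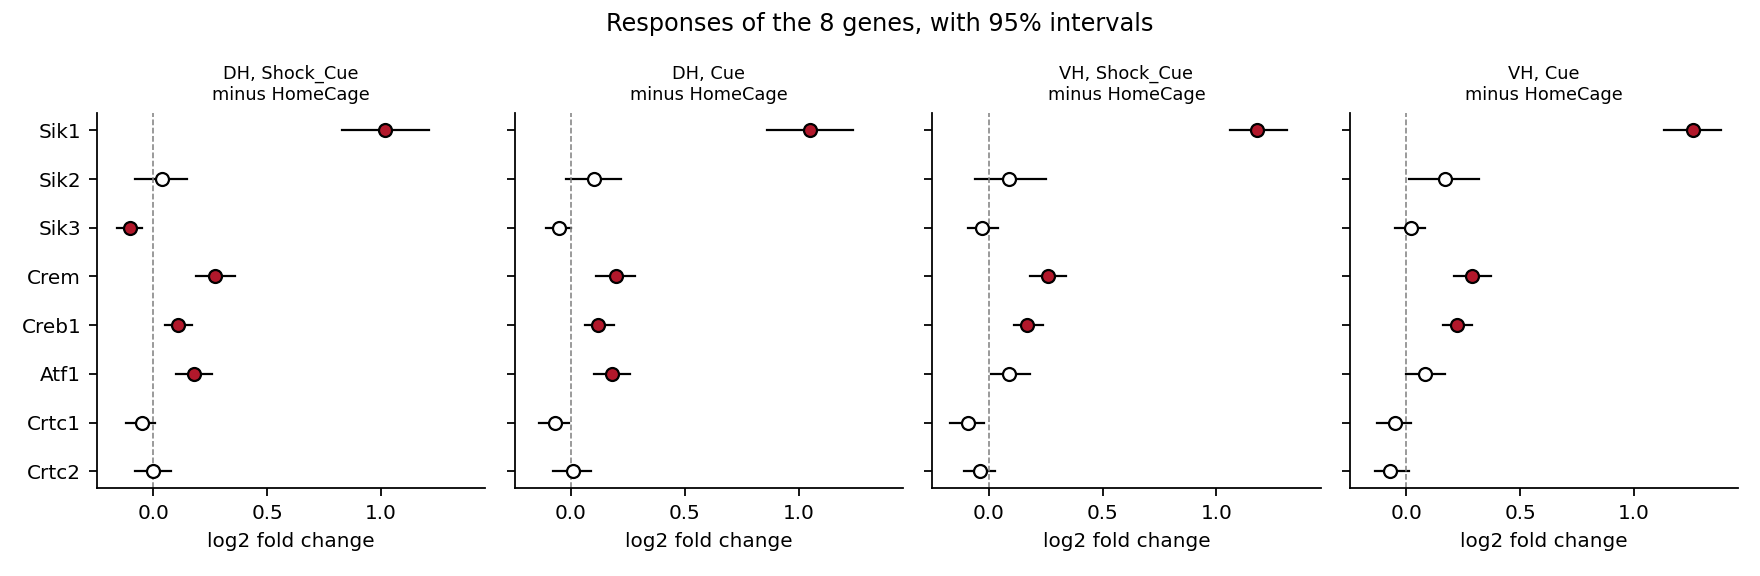
Log2 fold changes of the 8 genes over the home cage in each region, as means of both strain labels with 95% intervals; filled points passed the adjusted threshold of 0.05. Sik1 lies between 1.02 and 1.26, Crem and Creb1 are above 0 in all 4 panels, and Crtc1 and Crtc2 are unfilled.

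No difference between shock with the cue and the cue alone passed the test for any of the 8 genes. In each region 0 of 8 passed in edgeR, 0 had an unadjusted p under 0.05, and DESeq2 and limma-voom also called 0. The share of all genes called by edgeR was 0% in each region. Sik1 differed by -0.03 ± 0.0899 in DH (interval -0.22 to 0.15) and by -0.08 ± 0.0585 in VH (interval -0.19 to 0.04) on the log2 scale, Shock_Cue minus Cue. Crem differed by 0.08 ± 0.0409 in DH (interval -0.01 to 0.16) and by -0.03 ± 0.0405 in VH (interval -0.11 to 0.05).

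Between strain labels 1 of 8 members passed in edgeR, in VH. Sik3 was higher in VH libraries labelled 6NJ, where it ranged over 118.4 to 135.8 CPM (median 126.4 CPM, n = 18), than in those labelled 6J, where it ranged over 108.3 to 132.6 CPM (median 118.0 CPM, n = 18). The ranges overlapped, and the log2 difference over the 3 conditions was 0.09 ± 0.0266 (adjusted p = 0.0244). In that comparison 9.92% of all genes were called, so 1 of 8 members is close to the background. At an unadjusted p under 0.05 there were 3 members in VH, Sik3, Creb1 and Crem. In DH the same difference for Sik3 was 0.06 ± 0.0222 (adjusted p = 0.0528). DESeq2 and limma-voom each called it there, edgeR called 0 of 8 members (3 had an unadjusted p under 0.05), and edgeR called 14.7% of all genes. Marker sums also differed with the label. CA3 pyramidal cell markers summed to 71.6 ± 10.9 CPM under 6NJ and 52.5 ± 6.31 CPM under 6J in VH (SD, n = 18 each). Dentate granule cell markers there summed to 180.0 ± 36.4 CPM under 6NJ and 142.3 ± 29.4 CPM under 6J, and oligodendrocyte markers to 4358 ± 584.9 CPM under 6NJ and 3623 ± 1093 CPM under 6J. In DH the CA3 sum was 105.9 ± 12.2 CPM under 6NJ and 78.0 ± 7.69 CPM under 6J. Their part in the difference of Sik3 was not tested. In home cage libraries alone 0 of 8 members passed in edgeR, DESeq2 or limma-voom in either region, against 0.931% of all genes in DH and 1.35% in VH by edgeR. At an unadjusted p under 0.05 there were 0 members in DH and 3 in VH, of which Crem had the smallest p. Crem in VH HomeCage libraries was 10.9 to 12.9 CPM (median 11.7 CPM) under 6NJ and 12.6 to 14.1 CPM (median 13.4 CPM) under 6J, a log2 difference of -0.18 ± 0.0584 (adjusted p = 0.129).

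Responses were also compared between strain labels and between regions. In the 4 interactions of strain label with response, 0 of 8 members and 0% of all genes passed in edgeR, and 0 of 8 members passed in DESeq2 and limma-voom. The only member with an unadjusted p under 0.05 was Crem in VH, whose response to Shock_Cue was 0.36 ± 0.0581 under 6NJ and 0.16 ± 0.0577 under 6J, a difference of 0.20 ± 0.0818 (adjusted p = 0.998). For the difference of the responses between regions, 0 of 8 members and 0% of all genes passed in edgeR, with 0 members in DESeq2 and limma-voom and 1 member per condition at an unadjusted p under 0.05, Sik3 for Shock_Cue (-0.08 ± 0.0422) and Creb1 for Cue (-0.10 ± 0.0443).

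Levels between the regions differed for 6 of 8 members, against 63.6% of the 20255 genes tested, so the members' share was not far from the background. In the comparison DH minus VH, Sik3 was 0.17 ± 0.0172 higher (adjusted p = 7.34e-14), Crtc1 0.17 ± 0.0203 higher (adjusted p = 6.34e-11) and Creb1 0.11 ± 0.0181 higher (adjusted p = 5.74e-07) in DH on the log2 scale. The DH library exceeded the VH library of the same code for Sik3 in 35 of 36 codes, for Crtc1 in 33 and for Creb1 in 35. Sik2 (0.14 ± 0.0398, adjusted p = 0.00128) and Atf1 (0.09 ± 0.0227, adjusted p = 0.00035) were higher in DH as well. As a mean over the 3 conditions, Sik1 was lower in DH, at -0.13 ± 0.0457 (adjusted p = 0.0138), and the VH library was the higher one in 24 of 36 codes. In the home cage its mean was 8.30 CPM in DH and 8.28 CPM in VH. After Shock_Cue the means of Sik1 were 16.8 CPM in DH and 18.8 CPM in VH, and after Cue 17.2 and 19.8 CPM. Regions were not tested within a condition, and the differences in response did not pass (-0.17 ± 0.113 for Shock_Cue and -0.21 ± 0.113 for Cue). Crem differed by 0.02 ± 0.0230 (adjusted p = 0.456). Crtc2 differed by 0.05 ± 0.0222 (adjusted p = 0.0531 in edgeR). With the shared code in the fit, its adjusted p was 0.0357 in limma-voom (code as a random effect) and 0.0159 in edgeR (code as a block). Oligodendrocyte markers summed to 4887 to 9724 CPM in DH and 2508 to 6435 CPM in VH, and dentate granule cell markers to 164.4 to 399 CPM in DH and 102.2 to 260.8 CPM in VH. Their part in the regional differences was not tested.

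Per length, the coactivator Crtc1 had the highest mean level of the 8 genes, and the gene with the lowest depended on the condition: Sik1 in the home cage, and Sik2 after Shock_Cue or Cue. The length counted all annotated exons of a gene together. For Crem this was 5895 bases, while its transcript with the highest mean estimated count had 1015 bases. Levels per length therefore depend on the annotation, and so can the order of genes with near levels. Means over the 3 conditions are given first. CPM per kb of exon was 25.9 ± 1.52 in DH and 23.0 ± 1.56 in VH for Crtc1, and 14.9 ± 0.820 in DH and 13.2 ± 0.831 in VH for Sik3 (SD, n = 36 each). Crtc2 followed at 7.07 ± 0.475 in DH and 6.82 ± 0.411 in VH, and Creb1 at 4.71 ± 0.337 in DH and 4.37 ± 0.381 in VH. The ranges of these 4 genes did not overlap between neighbours within a region. Atf1 (3.27 ± 0.266 in DH and 3.06 ± 0.220 in VH), Sik1 (2.74 ± 0.926 in DH and 3.05 ± 1.09 in VH), Crem (2.47 ± 0.259 in DH and 2.43 ± 0.273 in VH) and Sik2 (2.25 ± 0.251 in DH and 2.03 ± 0.264 in VH) overlapped with their neighbours in that order. The place of Sik1 among them differed between conditions. In DH its mean CPM per kb was 3.27 ± 0.616 after Shock_Cue, 3.34 ± 0.440 after Cue and 1.62 ± 0.271 in the home cage (SD, n = 12 each). In VH it was 3.67 ± 0.411 after Shock_Cue, 3.85 ± 0.487 after Cue and 1.61 ± 0.160 in the home cage. Atf1 was above Sik1 in 7 of 12 DH libraries after Shock_Cue, in 7 of 12 after Cue and in 12 of 12 in the home cage, and in VH in 0 of 12 after Shock_Cue, 1 of 12 after Cue and 12 of 12 in the home cage. Sik2, at 2.17 ± 0.266 in DH and 1.91 ± 0.345 in VH in the home cage, was above Sik1 in 11 of 12 DH and 10 of 12 VH HomeCage libraries and in 0 libraries of the other conditions. Creb1 was above Atf1 in all 36 libraries of each region, although the VH ranges overlapped.

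**Figure D4:**
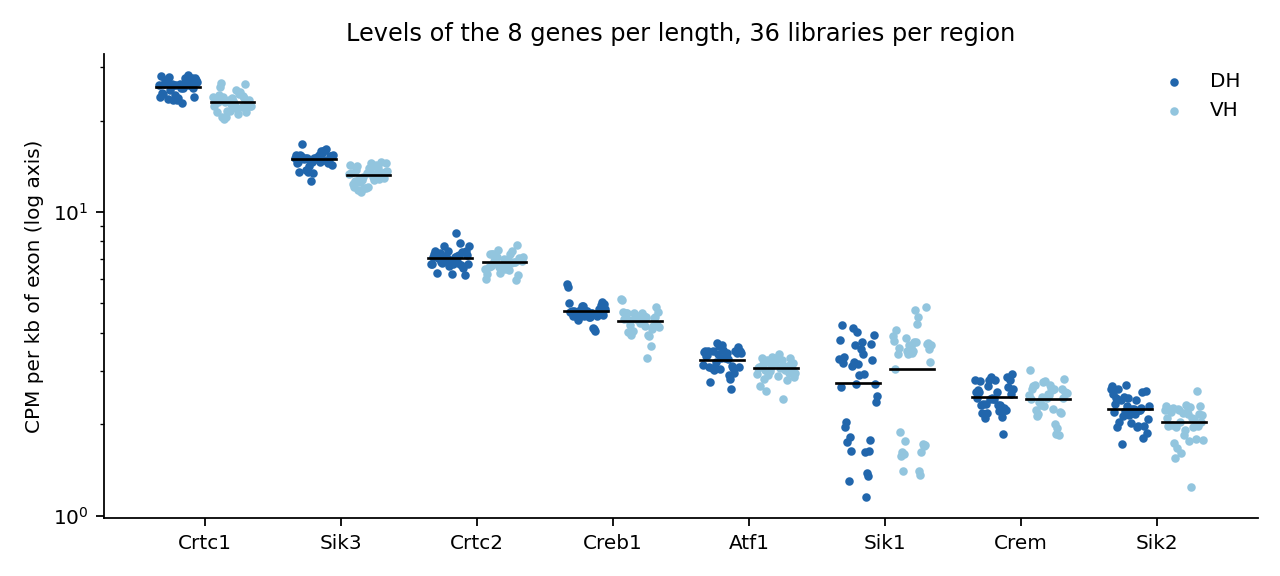
CPM per kb of exon of the 8 genes in each DH (dark, left of each pair) and VH (light, right) library, on a log axis; bars are means of 36 libraries. Crtc1, Sik3, Crtc2 and Creb1 do not overlap each other within a region, Creb1 overlaps Atf1 in VH, and Sik1 has the widest spread.

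Crem was followed by transcript as well. The 39 annotated transcripts begin at 6 clusters of start sites, separated by more than 1000 bases and numbered here from the farthest upstream. Cluster 6, with 7 transcripts starting between positions 3281769 and 3281078 of chromosome 18 inside the gene, encodes short reading frames of 285 to 375 bases, and it is where the internal promoter of the ICER repressor forms is known to lie. On average it held the largest share of the estimated Crem counts of the 6 clusters in every condition. The mean share in DH was 50.5 ± 6.66% after Shock_Cue, 53.4 ± 4.62% after Cue and 54.7 ± 4.55% in the home cage (SD, n = 12 each). In VH it was 52.2 ± 6.14% after Shock_Cue, 53.0 ± 5.87% after Cue and 53.5 ± 4.09% in the home cage. Cluster 1, the farthest upstream, held 23.6 to 30.6% on average, cluster 2 held 10.1 to 14.6%, and cluster 4 was under the filter on low counts. Transcripts of one gene share exons, so the split between them rests on the authors' estimation. The antisense Gm6225 begins at position 3336680, so of the 6 clusters only cluster 1 overlaps it. The limit on reads of shared antisense bases thus applies to cluster 1. Counts were not divided by transcript length, so the shares are not shares of molecules. The transcript with the highest mean had 1015 bases in cluster 6 (Crem-219), 2530 in cluster 1 (Crem-233) and 2485 in cluster 2 (Crem-230).

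Estimated counts were summed by cluster, a step added after the data had been seen, and tested with all other transcripts in the table. After Shock_Cue in DH, cluster 1 ranged over 1.73 to 7.13 CPM (median 4.36 CPM), against 1.88 to 4.43 CPM (median 2.75 CPM) in the home cage. The log2 fold change was 0.65 ± 0.172 (adjusted p = 0.0326, or 0.0534 without the filter on low counts). After Cue in DH it was 0.28 ± 0.171 (adjusted p = 0.484), and Shock_Cue minus Cue gave 0.37 ± 0.171 (adjusted p = 0.712). In VH cluster 1 gave 0.26 ± 0.230 after Shock_Cue (adjusted p = 0.619) and 0.37 ± 0.230 after Cue (adjusted p = 0.32). In VH, cluster 2 rose, with 1.41 to 2.95 CPM (median 1.94 CPM) after Shock_Cue, 1.06 to 2.12 CPM (median 1.74 CPM) after Cue and 0.601 to 1.94 CPM (median 1.06 CPM) in the home cage. Its log2 fold changes were 0.78 ± 0.157 for Shock_Cue (adjusted p = 0.00311) and 0.53 ± 0.157 for Cue (adjusted p = 0.0229). In DH cluster 2 gave -0.16 ± 0.175 for Shock_Cue (adjusted p = 0.792) and 0.11 ± 0.174 for Cue (adjusted p = 0.865). Cluster 6 rose in VH after Cue, with 6.10 to 8.17 CPM (median 7.57 CPM) against 4.84 to 7.46 CPM (median 6.54 CPM) in the home cage, by 0.24 ± 0.0742 (adjusted p = 0.0252). After Shock_Cue it was 0.22 ± 0.0742 in VH (adjusted p = 0.0836) and 0.14 ± 0.0762 in DH (adjusted p = 0.404), and after Cue in DH 0.14 ± 0.0762 (adjusted p = 0.397). Of all tested transcripts with Crem summed in this way, 2.81% passed in DH and 4.10% in VH after Shock_Cue, and 3.55% in DH and 13.5% in VH after Cue. DESeq2 called 2 clusters in VH after Shock_Cue where edgeR called 1, and in DH after Cue both called 0, with 0 at an unadjusted p under 0.05. Differences between clusters were not tested, nor were differences in a cluster's response between regions.

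**Figure D5:**
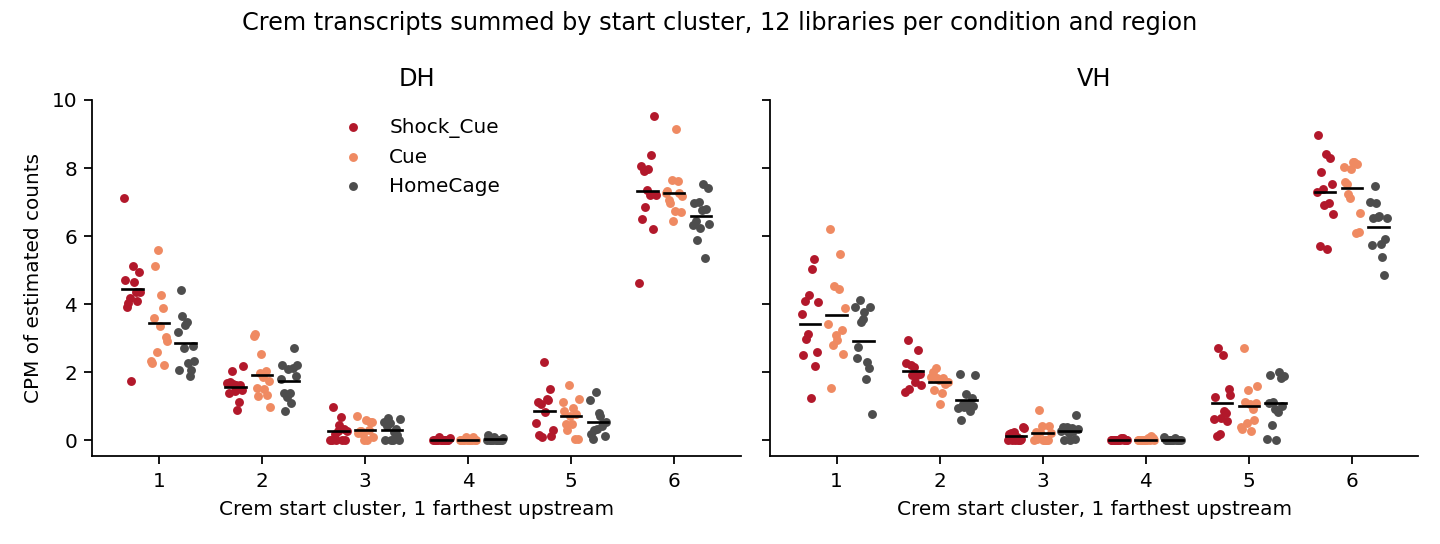
CPM of estimated counts of Crem transcripts summed by start cluster, in each library of DH (left) and VH (right), by condition; bars are means of 12 libraries. Cluster 6 is the highest in each condition, and cluster 2 in VH is lowest in the HomeCage libraries.

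Of the 39 single Crem transcripts, 15 passed the filter on low counts in each region and 18 over both. Crem-230, which makes up most of cluster 2, was the 1 transcript to pass against the home cage, in VH after Shock_Cue. It ranged over 1.38 to 2.95 CPM after Shock_Cue and 0.601 to 1.91 CPM in the home cage, a log2 fold change of 0.75 ± 0.170 (adjusted p = 0.00861), against 4.12% of all transcripts. In the other comparisons with the home cage edgeR called 0 of 15, against 2.79% of all transcripts for DH Shock_Cue, 3.59% for DH Cue and 13.4% for VH Cue. At an unadjusted p under 0.05 there were 1, 0 and 2 transcripts in those 3 comparisons, and DESeq2 called 0, 0 and 2. Between regions Crem-218, of cluster 6, was higher in DH by 0.44 ± 0.153 (adjusted p = 0.0246, or 0.057 with the shared code as a block), 1 of 18 against 26.9% of all transcripts. Between strain labels 0 of 15 transcripts passed in edgeR or DESeq2 in either region, against 2.90% of all transcripts in DH and 2.18% in VH by edgeR, with 2 in DH and 4 in VH at an unadjusted p under 0.05. Of the start clusters 0 passed between strain labels in edgeR or DESeq2, against 2.85% in DH and 2.19% in VH by edgeR, with 0 at an unadjusted p under 0.05 in either tool. Between regions 0 passed in edgeR or DESeq2, against 27.0% by edgeR, with 0 at an unadjusted p under 0.05 in edgeR and 1 in DESeq2.

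Other genes of the pathway were counted from lists chosen with earlier results of these data known, so the shares called describe the lists and are not a test. Of 22 genes with known CREB binding or cAMP induction, 13 rose and 0 fell in DH after Shock_Cue, where 5.52% of all genes rose, and 16 rose after Cue, where 7.45% did. In VH 16 of 22 rose after Shock_Cue, against 9.84%, and 17 of 22 after Cue, against 16.1%, with 0 falling. Arc, a synaptic immediate early gene, had the smallest p in each comparison and rose by 1.66 ± 0.0857 in DH after Shock_Cue and 1.72 ± 0.0859 after Cue, followed by Nr4a1, an orphan nuclear receptor (1.03 ± 0.0657 and 1.11 ± 0.0657), and Fosb, a partner of JUN proteins (1.43 ± 0.0951 and 1.52 ± 0.0952). In VH, Arc (1.53 ± 0.0580 after Shock_Cue and 1.69 ± 0.0582 after Cue), Fosb (1.48 ± 0.0622 and 1.52 ± 0.0622) and Junb (0.89 ± 0.0457 and 0.97 ± 0.0457) had the smallest p. The list's median log2 fold change was between 0.40 and 0.43 in the 4 comparisons.

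The lists upstream of and beside CREB were chosen in the same way, so their shares are not a test either. In VH after Shock_Cue, where 20.7% of all genes passed, 6 of 22, 3 of 14, 5 of 19 and 5 of 13 genes passed in the 4 lists below. The first 3 of these shares were not far from that background. Of all genes tested, 4.49% fell in DH after Shock_Cue and 5.57% after Cue, and 10.8% fell in VH after Shock_Cue and 15.4% after Cue, beside the shares that rose given above. Of 22 kinase, cyclase and receptor genes listed as upstream of CREB, 3 rose and 2 fell in DH after Shock_Cue, and 1 rose and 2 fell after Cue. In VH 2 rose and 4 fell after Shock_Cue, and 6 rose and 3 fell after Cue. The kinase gene Rps6ka3 rose in DH (0.14 ± 0.0348 after Shock_Cue), and Camkk2, which encodes a kinase that activates other calmodulin kinases, fell (-0.10 ± 0.0340 in DH and -0.15 ± 0.0361 in VH after Shock_Cue). Of 14 coactivators and related bZIP factors, 2 rose in DH in each comparison, and in VH 2 rose and 1 fell after Shock_Cue and 6 rose and 1 fell after Cue. Ep300, an acetyltransferase coactivator, rose in VH by 0.12 ± 0.0433 after Shock_Cue and 0.18 ± 0.0433 after Cue, while its paralog Crebbp fell by 0.10 ± 0.0288 in both. Of 19 genes that activate SIKs, bind them or are their other substrates, 1 rose and 1 fell in DH after Shock_Cue, 1 rose and 2 fell after Cue, and in VH 1 rose and 4 fell after Shock_Cue and 4 rose and 5 fell after Cue. Hdac4, which encodes a SIK substrate, rose in all 4 comparisons (0.15 ± 0.0424 in DH and 0.12 ± 0.0406 in VH after Shock_Cue). Strada, which encodes a partner of LKB1, fell in all 4 (-0.11 ± 0.0307 in DH and -0.12 ± 0.0275 in VH after Shock_Cue). Stk11, which encodes the kinase LKB1 that activates SIKs, fell in VH (-0.14 ± 0.0412 after Shock_Cue and -0.16 ± 0.0412 after Cue). Of 13 cAMP phosphodiesterase genes, 0 passed in DH after Shock_Cue in edgeR, DESeq2 or limma-voom (3 had an unadjusted p under 0.05 in edgeR), 1 rose after Cue, and in VH 4 rose and 1 fell in each comparison. Pde4b, which encodes an enzyme that breaks down cAMP, rose in VH by 0.21 ± 0.0395 after Shock_Cue and 0.19 ± 0.0395 after Cue.

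Across all 72 libraries, with each region's mean subtracted, log2 CPM of Sik1 varied most like that of Fosb (Pearson's r = 0.95), 1700016P03Rik (0.94), Fos (0.94), Egr2 (0.93) and Apold1 (0.92), out of 20255 genes. Fosb, Fos and Egr2 are immediate early genes that encode transcription factors. Crem varied most like Homer1 (0.82), Atg12 (0.81), Bmt2 (0.79), Spred1 (0.77) and 1700016P03Rik (0.76), of which Homer1 encodes a synaptic scaffold. For the other members the highest values were 0.87 for Sik2 with Ankhd1, 0.83 for Sik3 with Supt6, 0.87 for Creb1 with Fxr1, 0.62 for Atf1 with Gnai3, 0.86 for Crtc1 with Adgrb2 and 0.71 for Crtc2 with Atxn2l. These values describe libraries that share conditions, regions and code numbers. Among the members, Sik1 and Crem had r = 0.75, Crem and Creb1 0.72, Sik1 and Creb1 0.66 and Sik1 and Atf1 0.56, whereas Sik1 had 0.31 with Sik2, -0.20 with Sik3, -0.46 with Crtc1 and -0.17 with Crtc2.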

How the data were processed

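Polyadenylated RNA of 72 libraries was sequenced as 75 bp single-end reads of a stranded kit, per the labels' protocols. The authors deposited a table of read counts per gene and a table of estimated counts per transcript; the submitters' processing notes name FastQC, HISAT2, featureCounts, kallisto, DESeq2 and GRCm38. Tool versions, parameters and the strand setting were not given in the sources used here, and the strand setting bears on genes with antisense partners. From the deposited counts, edgeR 4.0.16 in R 4.3.3 was run with TMM scaling, its expression filter by group and the robust quasi-likelihood test, on the 36 libraries of a region together or on all 72 for comparisons of regions, with Benjamini-Hochberg adjustment over all features and a threshold of 0.05. Estimated counts were rounded first. Gene totals were 30330382 to 56258370 and transcript totals 32208170 to 59879104. DESeq2 1.42.0, limma 3.58.1, other scalings and filters, and fits without certain codes were alternatives. The limma-voom fits had a random effect, the code number within a region and the shared code for comparisons of regions. The edgeR gene fit was tested on simulated DH counts, drawn independently with the same spread for every gene. That does not cover shared codes or the transcript fits. Groups come from the labels. The members and lists were chosen with earlier results of these data known. Named were all 8 genes, the Crem transcripts past the filter, and, per list and direction, genes among the 3 smallest p of those called.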

Additional observations from a re-analysis of the deposited data

Results flagged for a closer look

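In 5 of the 96 groups of 6 libraries (8 genes by 12 groups), 1 library lay far from the other 5, with a gap over the range above Dixon's 95% critical value. Chance flags about 1 in 20 groups. Sik1 was 24.9 CPM in the VH Shock_Cue library 37A labelled 6NJ, against 16.5 to 19.0 CPM in the other 5, and Crtc2 was 25.5 CPM in the same library, against 28.1 to 29.2 CPM. Atf1 was 9.59 CPM in the DH Cue library 32A labelled 6J, against 10.3 to 10.6 CPM, and 9.47 CPM in the DH Shock_Cue library 39A labelled 6NJ, against 10.5 to 11.0 CPM. Sik3 was 138.0 CPM in the DH HomeCage library 42A labelled 6NJ, against 146.0 to 150.0 CPM.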

How the results depend on the processing

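Of the members, Crem transcripts and start clusters called in at least 1 fit, none reversed its direction under any alternative run. Their calls were the same as in the main fit in 199 cases, lost in 5 and gained in 9. Counts of members or Crem transcripts called stayed within 1.5 times in 144 cases and moved in 6. A count of 0 in both fits was taken as unchanged. Without the 6 codes with high Lcn2, DH Cue minus HomeCage called 1 member in place of 4, and 509 genes in place of 2558; fewer libraries were then compared. The same setting gave 2494 genes in place of 6171 for VH Cue, 1586 in place of 2888 for the DH and 1289 in place of 1945 for the VH strain difference. For the DH strain difference DESeq2, limma-voom and the fit without those codes each called 1 member, Sik3 (0.06, 0.06 and 0.10), in place of 0, and the cause was not tested. DESeq2 called 2 Crem transcripts in VH after Cue in place of 0, Crem-230 (0.49) and Crem-219 (0.38). Without the DH library 40A no count of members moved.

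The labels do not say whether a code that a DH and a VH library have in common marks 1 animal. Correlations of their deviations from the group means ran from -0.268 to 0.515 over 36 codes (median 0.18, 25 of them over 0.1), which does not settle the pairing, so the comparison of regions was made without it. With the code as a replicate block, 7 members in place of 6 differed between regions (Crtc2 was added), Crem transcripts called fell to 0 in place of 1 (Crem-218, 0.46, adjusted p = 0.057), and 14 genes in place of 0 differed in the Shock_Cue response between regions.

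Home cage strain counts over all genes were 304 by DESeq2, 104 without the high Lcn2 codes and 108 with only the groups compared, in place of 183 in DH, and 171 without the filter and 59 with only the groups compared, in place of 264 in VH. DESeq2 called 3 genes in place of 0 for DH Shock_Cue minus Cue and 1 in place of 0 for the VH strain by Shock_Cue interaction. For transcripts, DESeq2 and no filter gave 2619 and 1043 in place of 1576 for DH Shock_Cue, and 3754 and 1482 in place of 2296 for VH. DESeq2 gave 2563 in place of 1641 for the DH and 1989 in place of 1218 for the VH strain difference, and 67 and 48 in place of 0 for Shock_Cue minus Cue in DH and VH. Crem transcripts had 0 to 5.26 CPM, so depth limits what single transcripts can show.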
